A study of Homo sapiens with 26 samples.

Results

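The genes described here are those of the insulin-like growth factor (IGF) axis: the ligand gene IGF2, its neighbour H19, the receptors IGF1R and IGF2R, and the IGF binding proteins IGFBP2, IGFBP3, IGFBP4, IGFBP5, IGFBP6 and IGFBP7. These 10 genes were chosen by name, and 9 of them had a row among the 41078 genes of the expression table, while H19 was not analysed here. RNA was sequenced from 26 single cell-derived cell lines (SCDCLs) of human pancreatic ductal adenocarcinoma cells, each grown from a single cell by limiting dilution and each given by 1 library, so that every library is 1 clone. 12 libraries are labelled BxPC3 and 14 are labelled Panc1. All libraries carry gemcitabine in their treatment label, but in the methods this drug appears only in viability assays run apart from the RNA, and no clone's response to it was analysed here. BxPC3 is a line known to lack SMAD4, a mediator of TGF-beta signalling, and Panc1 is a line known to keep it.

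SMAD4 went against the label of 14 libraries. It was 0 to 0.0440 TPM, a level corrected for transcript length and library size, in 5 libraries labelled BxPC3 and 7 labelled Panc1, and 28.1 to 52.2 TPM in 7 labelled BxPC3 and 7 labelled Panc1. The IGF genes are therefore given for the 12 libraries with SMAD4 under 1 TPM and for the 14 others, and each clone is named by its label and library number. This split was made from measured values of the same libraries, so differences between the 2 sets are given as levels and ranges with no test. The sets differed in many genes. Of 5 epithelial markers, CDH1 (E-cadherin) and EPCAM were higher in all 12 libraries than in any of the 14, while the keratin genes KRT8, KRT18 and KRT19 overlapped, and the list summed to 2255 to 4960.4 TPM in the 12 and 2026 to 8412 TPM in the 14. Of 4 mesenchymal markers, VIM (vimentin) and ZEB1 were higher in all 14, FN1 (fibronectin) was higher in all 12 and CDH2 overlapped, with sums of 12.4 to 129 TPM in the 12 and 3109 to 4565 TPM in the 14. VIM alone was 3047 to 4526 TPM in the 14, so it made up most of these sums. Of 3 endothelial markers, CDH5 (1.04 to 13.6 TPM in the 12 and 0 to 0.0427 TPM in the 14) and VWF (at most 0.473 TPM) were higher in all 12 and PECAM1 overlapped, with sums of 3.16 to 17 TPM in the 12 and 0.321 to 5.39 TPM in the 14. The 3 fibroblast markers overlapped and summed to at most 3.63 TPM. Of 3 leukocyte markers, CD68 was higher in all 14 at 42.5 to 141 TPM, whereas PTPRC and CD3E were at most 0.535 and 0.393 TPM in any library. CDKN2A, a gene both lines are known to lack, was 0 throughout. Libraries held 27035724 to 34945608 estimated counts, and mitochondrial transcripts made up 3.82 to 11.9% of TPM in the 12 libraries and 1.37 to 6.24% in the 14. The part of these differences in the levels below was not tested, and in bulk RNA fewer expressing cells and less RNA per cell cannot be told apart.

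IGF2 is a secreted growth factor that acts mainly through the receptor tyrosine kinase IGF1R, while IGF2R binds IGF2 and carries it to lysosomes without a kinase of its own. IGF binding proteins hold IGFs outside the cell, prolong their life and can keep them from the receptor, and proteases release IGFs from them again. IGFBP6 prefers IGF2 over IGF1, whereas IGFBP7 binds IGFs only weakly. IGF1R signals through IRS adaptors to PI3 kinase and AKT, a route often active in pancreatic cancer cells.

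The ligand and the leading binding protein lay in opposite directions between the sets. IGF2 was higher in the 14 libraries with SMAD4, IGFBP6 and IGFBP5 were higher in the 12 without it, and the other members overlapped. The plot of levels per library shows this pattern across the 9 genes.

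**Figure D1:**
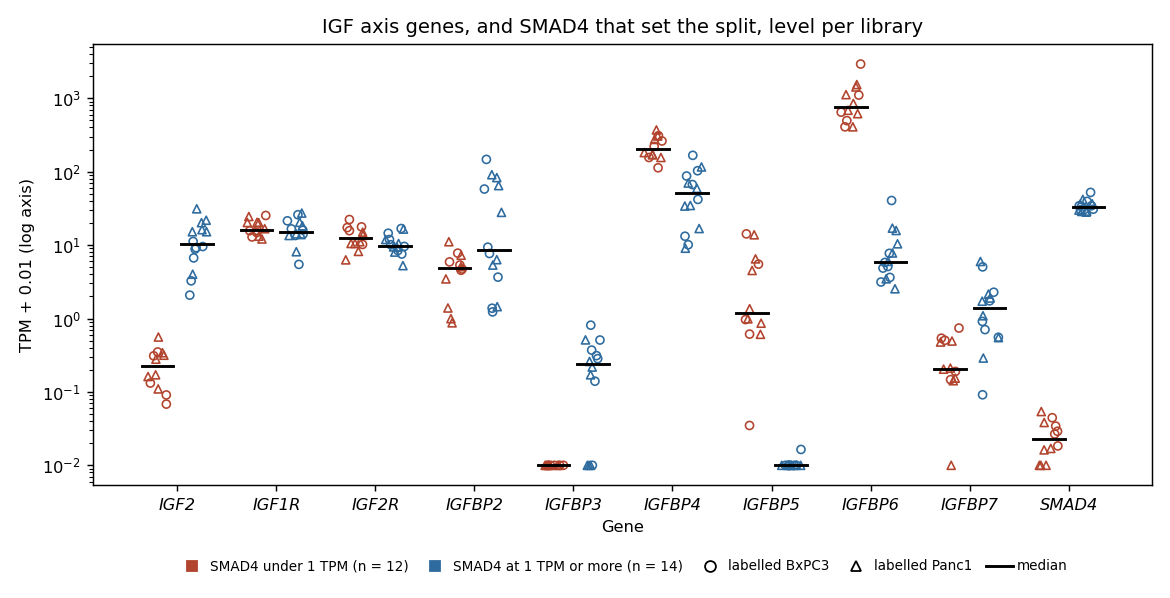
Level of each IGF axis gene, and of SMAD4, in each library (y axis, TPM + 0.01 on a log axis; a point is 1 library, circles labelled BxPC3 and triangles labelled Panc1, black lines are medians). IGF2, IGFBP5 and IGFBP6 separate the 12 libraries with SMAD4 under 1 TPM from the 14 others. Within each set the ranges of circles and triangles overlap. For IGF2 in the 14, however, all triangles but Panc1 10 at 4.0 TPM lie above the highest circle at 11.2 TPM.

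IGF2 (chr11:2129112-2158391, minus strand, GRCh38) was under 1 TPM in each of the 12 libraries without SMAD4, at a lowest, median and highest level of 0.0582, 0.215 and 0.549 TPM. In the 14 with SMAD4 these were 2.07, 10.4 and 31.2 TPM. The ranges did not overlap, and the medians differed 48.3-fold. On the log2(TPM + 1) scale the difference of the medians was -3.23, which in size lay at percentile 94.8 of the 15246 genes with a median of at least 1 TPM in a set, where the median absolute difference was 0.66. Among the 14 libraries, BxPC3 20 was lowest and Panc1 11 was highest, with BxPC3 23 at 3.25 and Panc1 10 at 4.0 TPM as the next lowest. The readthrough gene INS-IGF2, which overlaps IGF2, was at most 0.119 TPM, although reads of overlapping transcripts cannot be told apart with certainty.

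The receptors were present in every library. IGF1R (chr15:98648539-98964530, plus strand) was 12.1, 16.3 and 25.3 TPM at its lowest, median and highest in the 12 libraries, and 5.45, 15.1 and 27.3 TPM in the 14. IGF2R (chr6:159969082-160113507, plus strand) was 6.28, 12.4 and 22.3 TPM in the 12 libraries, and 5.24, 9.83 and 16.8 TPM in the 14. Both receptors overlapped between the sets, with medians that differed 1.08-fold for IGF1R and 1.26-fold for IGF2R. The mean effective transcript length of IGF2R was 5161 to 7317 bases in the 12 libraries and 6955 to 10564 bases in the 14, so that its level rests on different mixtures of transcripts. The part of this in its level was not tested. The insulin receptor gene INSR was low in both sets, with a median of 0.482 TPM in the 12 libraries and 0.508 TPM in the 14, and the ligand genes IGF1 and INS were at most 0.506 and 0.233 TPM.

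IGFBP6 (chr12:53097436-53102345, plus strand) was the most abundant gene of the axis in the 12 libraries without SMAD4. It was lowest at 408 TPM in Panc1 3 and BxPC3 16, had a median of 768 TPM and reached 2926 TPM in BxPC3 26, with a mean of 1019 ± 710.2 TPM (SD, n = 12). Among the 14 others it was 2.53, 5.89 and 40.5 TPM at its lowest, median and highest, with a mean of 9.54 ± 9.96 TPM (SD, n = 14). The ranges did not overlap and the medians differed 131-fold. BxPC3 23, the highest of the 14, was followed by Panc1 13 at 17 and Panc1 9 at 15.8 TPM. The log2(TPM + 1) difference of the medians, 6.80, lay at percentile 99.6 of all genes.

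IGFBP5 (chr2:216672105-216695549, minus strand), a binding protein held in the extracellular matrix, was the other binding protein whose ranges did not overlap. Its level varied widely among the 12 libraries without SMAD4. It was 14.2 TPM in BxPC3 24, 13.8 in Panc1 2, 6.48 in Panc1 3, 5.49 in BxPC3 25 and 4.50 in Panc1 4. The next libraries were Panc1 6 at 1.35, Panc1 5 at 0.980, BxPC3 16 at 0.957 and Panc1 1 at 0.853 TPM. BxPC3 21 at 0.603, Panc1 7 at 0.599 and BxPC3 26 at 0.0249 TPM were lowest, the last resting on 3.84 estimated counts. Both labels were thus found at the high and at the low end. In the 14 libraries with SMAD4, IGFBP5 was listed at 0 in 13 and at 0.00645 TPM in BxPC3 17. A floor of 3 counts in a library stands for at most 0.0241 TPM there, so that the median of 1.16 TPM in the 12 libraries was at least 48.3-fold higher. This floor covers counting error only. On the log2(TPM + 1) scale the difference of the medians was 1.11. In size it lay at percentile 70.1 of the genes with a median of at least 1 TPM in a set.

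The 250 bases upstream of the RefSeq start (GRCh38.p14) of IGFBP5 and of IGFBP4, the binding proteins with a higher median in the 12 libraries whose window lies outside the annotated gene, are shown because their levels differed between the sets in unlike ways, IGFBP5 being listed at 0 in 13 of the 14 and IGFBP4 being present in all. Capitals mark GC boxes, the letters GGGCGG on either strand. The IGFBP5 window is chr2:216695550-216695799 on the minus strand and the IGFBP4 window is chr17:40443200-40443449 on the plus strand.
IGFBP5: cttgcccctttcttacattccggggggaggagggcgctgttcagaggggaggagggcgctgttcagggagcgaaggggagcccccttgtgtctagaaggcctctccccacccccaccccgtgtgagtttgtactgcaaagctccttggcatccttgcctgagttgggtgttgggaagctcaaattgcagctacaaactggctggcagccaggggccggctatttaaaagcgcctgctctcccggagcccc
IGFBP4: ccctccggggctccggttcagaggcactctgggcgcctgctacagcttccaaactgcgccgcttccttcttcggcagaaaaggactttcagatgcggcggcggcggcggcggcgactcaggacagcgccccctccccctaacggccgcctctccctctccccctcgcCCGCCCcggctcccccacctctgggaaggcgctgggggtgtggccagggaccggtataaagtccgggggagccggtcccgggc
The IGFBP5 window held none of the 4 motifs searched on both strands, which were the GC box, TATAAA, the E-box CAGGTG bound by ZEB1 and SNAI1, and the AP-1 site TGANTCA. It held 8 CG dinucleotides against a median of 11 in 35116 windows of the same length. The IGFBP4 window held 1 GC box, 1 TATAAA and 24 CG dinucleotides. Over the 35116 windows, 42.6% held a GC box, 10.7% TATAAA, 17.5% CAGGTG and 6.57% TGANTCA. The receptor windows were denser in CG, with 48 in IGF1R and 33 in IGF2R, at 2 and 6 GC boxes. The IGFBP6 window, of which most lies inside the longest annotated gene model, held 1 GC box, 1 CAGGTG and 9 CG dinucleotides, and that of IGFBP3, of which all does, held 2 GC boxes, 1 CAGGTG and 32. CAGGTG also occurred 2 times in the IGF2R window, and 1 time each in that of H19 and in 1 of the IGFBP2 windows. Windows were matched for 8 of the 10 genes, and a match of letters is a description only.

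IGFBP4 (chr17:40443450-40457725, plus strand), which sequesters IGFs and is cleaved by the protease PAPPA, was high in every library without SMAD4. Its lowest, median and highest levels were 113, 201 and 370.3 TPM there, and 9.05, 50.6 and 167 TPM in the 14 others. The medians differed 3.98-fold, and the ranges overlapped through BxPC3 23 at 167 TPM and Panc1 9 at 116 TPM. Panc1 8 was lowest at 9.05 TPM, with BxPC3 20 at 10.1 and BxPC3 17 at 13.2 TPM.

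IGFBP2 (chr2:216632828-216664436, plus strand), a binding protein with a cell-binding motif, lies 7668 bases from the end of IGFBP5 on the opposite strand. In the 12 libraries without SMAD4 it was 0.863, 4.89 and 11.1 TPM at its lowest, median and highest. Among the 14 others it was 1.22, 8.52 and 147 TPM, a 120.4-fold range between BxPC3 22 and BxPC3 23. 6 of the 14 libraries lay at 27.9 TPM or more, namely BxPC3 23 at 147, Panc1 9 at 90.9, Panc1 8 at 83.0, Panc1 10 at 64.6, BxPC3 19 at 58.0 and Panc1 13 at 27.9 TPM. The other 8 lay at 9.36 TPM or less, and both labels occurred on each side of this gap. Although the medians differed 1.74-fold, the ranges of the sets overlapped.

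IGFBP3 and IGFBP7 were low, at no more than 0.801 and 5.97 TPM in any library. IGFBP3 (chr7:45912245-45921874, minus strand), the main IGF carrier of blood, was listed at 0 in all 12 libraries without SMAD4 and in 4 of the 14 others, where its median was 0.229 and its highest level 0.801 TPM, or 29.6 estimated counts. IGFBP7 (chr4:57030773-57110385, minus strand) was 0, 0.198 and 0.731 TPM at its lowest, median and highest in the 12 libraries, and 0.0814, 1.39 and 5.97 TPM in the 14. The medians differed 7.05-fold with overlapping ranges, and that of the 12 lay near the 0.183 TPM that 3 counts stand for there. Panc1 9 at 5.97 and BxPC3 15 at 5.04 TPM stood above the others. IGFBP7 rested on at most 13 estimated counts in the 12 libraries and 122 in the 14. Where it had at least 5 counts, its mean effective transcript length was 596 to 707 bases in 5 of the 12 libraries. In 12 of the 14 it was 845 to 1129.7 bases. The part of this in its level was not tested.

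The order of the levels differed between the sets. In the 12 libraries without SMAD4, IGFBP6 stood above IGFBP4 in 12 of 12, and IGFBP4 above IGF1R in 12 of 12. IGF1R stood above IGF2R in 9 of 12, IGFBP2 above IGFBP5 in 8 of 12 and IGF2 above IGFBP7 in 7 of 12, so these neighbours had no constant order. With SMAD4, IGFBP4 stood above IGF1R in 10 of 14. IGF1R, IGF2, IGF2R and IGFBP2 followed with medians between 8.52 and 15.1 TPM, and IGF2 was above IGF2R in 7 of 14.

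For background, 15.2% of the 15246 genes with a median of at least 1 TPM in a set were higher in all 12 libraries than in any of the 14, and 15.8% were lower in all 12. 8 of the 9 members passed this filter, of which IGFBP5 and IGFBP6 were in the first class and IGF2 in the second. IGF2, IGFBP5 and IGFBP7 passed the filter through 1 set alone, so their presence in it is no independent evidence. With a median of at least 1 TPM asked in both sets, 10.5% and 14.4% of 12381 genes fell into these classes, and of 5 members 1, IGFBP6, was in the first class and 0 were in the second.

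Summed over IGFBP2 to IGFBP7, binding protein transcripts made up 569.9, 977 and 3239.8 TPM at the lowest, median and highest in the 12 libraries without SMAD4. Among the 14 others they made up 23.7, 91.2 and 356 TPM. IGFBP6 led the sum in 12 of 12 libraries without SMAD4, at 67.6 to 90.3%, with IGFBP4 at 9.53 to 30.1%. In the 14 others IGFBP4 led in 11 and IGFBP2 in 3, which were Panc1 8 at 83.2%, Panc1 10 at 59.7% and BxPC3 19 at 55.1% IGFBP2. The make-up was thus alike within the first set and mixed within the second, where the share of IGFBP2 ran from 1.09 to 83.2%.

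**Figure D2:**
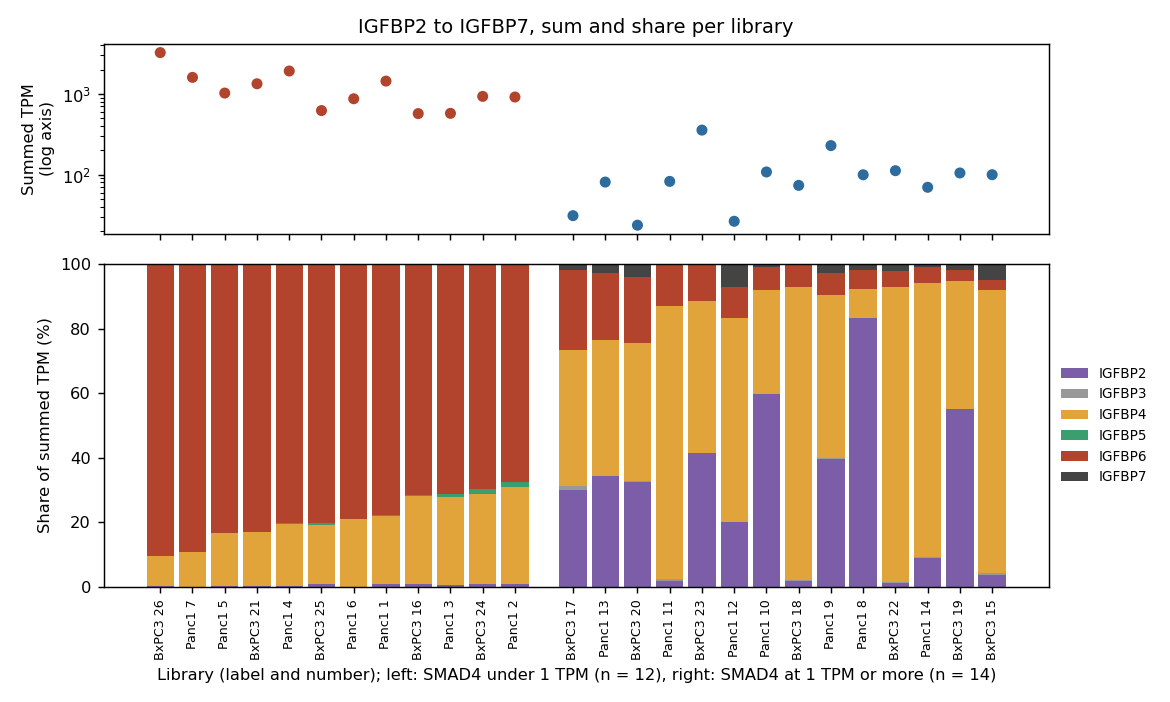
Summed level of IGFBP2 to IGFBP7 (upper panel, TPM on a log axis) and the share of each gene in that sum (lower panel, %), with 1 point or bar per library, sorted within each set by the share of IGFBP6. IGFBP6 takes 67.6 to 90.3% in the 12 libraries with SMAD4 under 1 TPM, while IGFBP4 and IGFBP2 take most of the sum in the 14 others.

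The largest spreads between clones of a set were those of binding proteins. The spread of each gene was taken as the SD of log2(TPM + 1) over libraries and was set among all genes with a mean of at least 1 TPM in the set, whose median SD was 0.30 in the 12 libraries and 0.29 in the 14. In the 12 libraries without SMAD4, IGFBP5 had an SD of 1.33, and 125 of 14375 genes had a larger SD. The SD of IGFBP2 there was 0.87 and that of IGFBP6 was 0.86, at percentiles 96.1 and 95.9. IGFBP4, IGF2R and IGF1R were nearer to the other genes, with SDs of 0.51, 0.48 and 0.34. In the 14 others, IGFBP2 had an SD of 2.17, and only 2 of 13826 genes had a larger SD. IGFBP4 followed with 1.31 and then IGFBP6 with 0.98, IGF2 with 0.97 and IGFBP7 with 0.78, while IGF1R had 0.57 and IGF2R 0.41. Counting error alone, taken as Poisson on the estimated counts, gave an SD of 0.0502 for IGFBP5 in the first set and of 0.0819 for IGFBP2 in the second, and the spread between clones was 26.5 times larger for both. Without replicate libraries of a clone, the spread between clones cannot be told apart from that between cultures or library preparations.

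**Figure D3:**
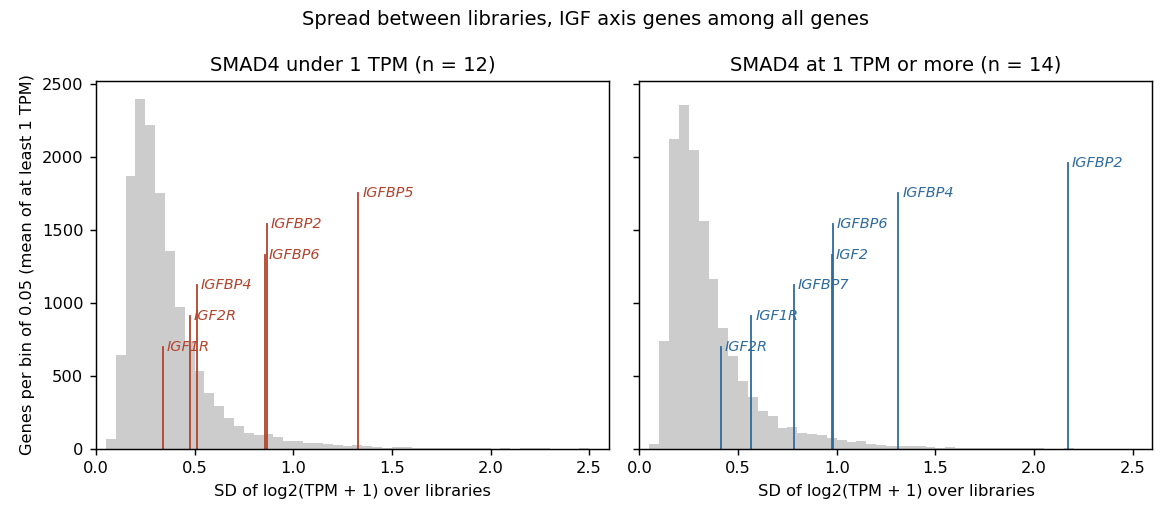
SD of log2(TPM + 1) over libraries (x axis) for all genes with a mean of at least 1 TPM (grey bars, number of genes per bin of 0.05) and for the IGF axis genes among them (coloured lines, whose height has no meaning), in each set of libraries. IGFBP5 at 1.33 in the 12 libraries and IGFBP2 at 2.17 in the 14 lie in the far right of the distributions.

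The genes that followed these 2 most variable binding proteins most closely were sought among the same genes, by Pearson's r over the log2(TPM + 1) levels of the libraries of the set, as a description. IGFBP5 in the 12 libraries was followed by KLHDC4 with r = 0.94, FAM118A with r = 0.91 and TERT, the catalytic subunit of telomerase, with r = 0.89, and 45 genes had r of at least 0.8. TERT ran from 0.586 to 4.91 TPM. IGFBP2 in the 14 libraries was followed by RAC3, a small GTPase, with r = 0.91, NT5C3B with r = 0.90 and DNAJA4, a co-chaperone, with r = 0.84, and 15 genes had r of at least 0.8. The points share library depth and, within a set, most of their expression profile.

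Whether partner genes varied together among clones was asked of 3 relations on the log2(TPM + 1) scale, with 2-sided permutation tests. IGFBP2 and its neighbour IGFBP5 gave no relation that passed in the 12 libraries (Pearson's r = 0.37, permutation p = 0.230, adjusted p = 0.345, Spearman's rho = 0.28, permutation p = 0.378, adjusted p = 0.566), and r was 0.25 without the 2 libraries farthest from the median of IGFBP2 (permutation p = 0.500). IGF1R and IGF2R gave none in these libraries (r = -0.01, permutation p = 0.973, adjusted p = 0.973, rho = -0.06, permutation p = 0.869, adjusted p = 0.869), with r = -0.37 without the 2 farthest. In the 14 libraries with SMAD4, IGF1R and IGF2R were correlated by rank (rho = 0.66, permutation p = 0.0122, adjusted p = 0.0367), while Pearson's r of 0.54 had a permutation p of 0.0447 and did not pass after adjustment (adjusted p = 0.134). Without BxPC3 18 and Panc1 9, the libraries farthest from the median of IGF1R, r was 0.80 with a permutation p of 0.00257. BxPC3 18 had the lowest IGF1R, 5.45 TPM, beside an IGF2R of 11.9 TPM, and r was 0.87 without it alone. BxPC3 20 and Panc1 14 were high in both receptors, and r fell to 0.45 without either of them and to 0.40 without Panc1 9, with permutation p between 0.120 and 0.176. The difference in r between the sets was not tested.

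**Figure D4:**
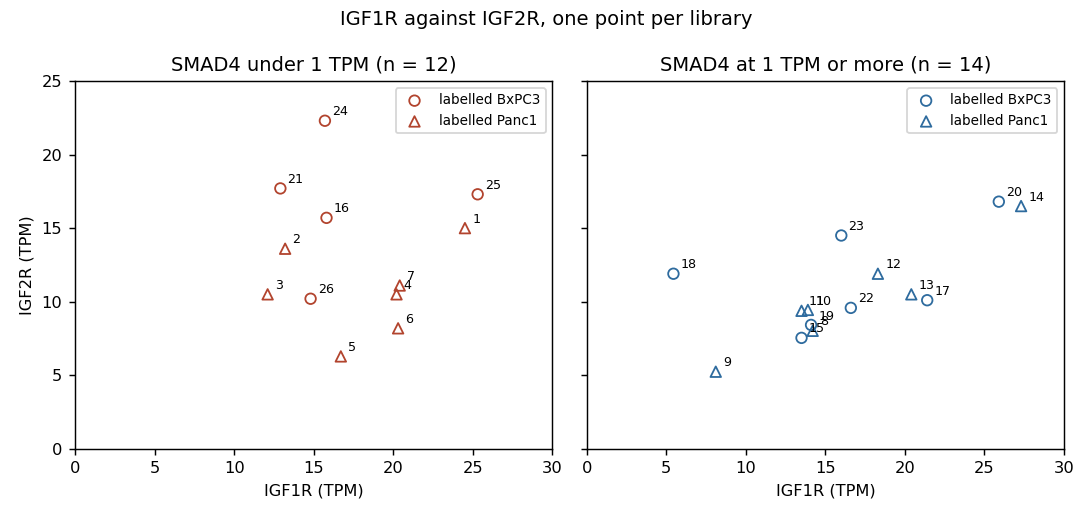
IGF1R (x axis, TPM) against IGF2R (y axis, TPM), with 1 point per library marked by its number, in each set. In the 14 libraries with SMAD4, BxPC3 20 and Panc1 14 are high in both receptors and BxPC3 18 lies apart, and in the 12 others no relation is seen (r = -0.01).

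Libraries labelled BxPC3 and Panc1 were then compared within each set, a comparison that does not use the split values. Since SMAD4 goes against 14 labels, the labels may not give the line of every library, and the values below compare labels rather than the 2 lines. In no comparison was an IGF axis gene called by edgeR's quasi-likelihood test at an adjusted p under 0.05 with an absolute log2 fold change over 1. Over all 26 libraries 0 of 16008 genes were called (0% of those tested), with 367 at an unadjusted p under 0.05. Within the 12 libraries 0 of 16124 were called (0%, 1840 at an unadjusted p under 0.05), and within the 14 others 0 of 15161 (0%, 700). DESeq2 called 1, 11 and 0 genes in these comparisons, none of them a member, and limma called 0 in each. 7 of the 9 members passed the filter on low counts in each of these edgeR and DESeq2 fits. IGFBP3 passed in none of them and IGFBP5 in the 12 libraries alone. IGFBP7 passed over all 26 libraries and over the 14 others.

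IGF2 had the largest log2 fold change in size by label among the members in each of the edgeR comparisons given above, an order that other fits changed. With median-of-ratios scaling in edgeR, IGF2R was ahead in size in the 12 libraries at -0.58 against 0.57. Without BxPC3 23, IGFBP2 was ahead of IGF2 in the 14 libraries at 1.63 against 1.14, and without BxPC3 24, IGFBP5 was ahead in the 12 at 1.32 against 0.43. Within the 14 libraries its lowest, median and highest levels were 4.0, 16.2 and 31.2 TPM in the 7 labelled Panc1 and 2.07, 8.81 and 11.2 TPM in the 7 labelled BxPC3. The log2 fold change was 1.27, with an unadjusted edgeR p of 0.00616, and did not pass after adjustment (edgeR adjusted p = 0.982). Within the 12 libraries IGF2R was 10.2, 17.3 and 22.3 TPM in the 5 labelled BxPC3 and 6.28, 10.5 and 15 TPM in the 7 labelled Panc1, with a log2 fold change of -0.56 (edgeR adjusted p = 0.405). The log2 fold changes of IGFBP5 and IGFBP6 in these 12 libraries were 0.11 (edgeR adjusted p = 0.975) and -0.30 (edgeR adjusted p = 0.843). Single libraries turned both signs. That of IGFBP5 was -0.65 without Panc1 2 and 1.32 without BxPC3 24, and that of IGFBP6 was 0.58 without BxPC3 26, so no direction by label can be read for either gene.

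Other genes of the pathway were taken from a list of 57 genes, of which 54 had a row and 39 had a median of at least 1 TPM in a set. Of these 39, 5 were higher in all 12 libraries without SMAD4 than in any of the 14, 8 were lower in all 12, and 26 overlapped. Among those without overlap, FOXO1, STC1, TH, STC2, IGF2BP1 and IGFBPL1 reached such a median in 1 set alone, so their presence here is no independent evidence. The 13 genes without overlap were 33.3% of the list against 31.0% of all 15246 genes with such a median (15.2% higher and 15.8% lower in the 12 libraries), so the list as a whole lay near the background. The adaptors and kinases held 19 of the 39 genes, with 2 higher, 3 lower and 14 overlapping, so that 26.3% did not overlap, a share under the 31.0% of all genes. The kinase gene AKT2 was lower in the 12 libraries at a median of 158 TPM, against 1853 TPM in the 14, a difference of 11.8-fold, while AKT1 overlapped at medians of 82.4 and 92.0 TPM. FOXO1, a transcription factor that AKT holds out of the nucleus, went the other way at 11.8 and 0.560 TPM. IRS1, the main IGF1R adaptor, had medians of 37.1 and 16.8 TPM with overlapping ranges. Of 3 other binding proteins listed, 1, IGFBPL1, had a median of at least 1 TPM in a set, and this in the 14 libraries alone. It was lower in all 12, at 0.0289 to 0.285 TPM against 0.559 to 24.8 TPM in the 14.

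Stanniocalcins inhibit the proteases that free IGFs from IGFBP4 and IGFBP5, and each set held a different gene of this family. Of 4 listed proteases and inhibitors with a median of at least 1 TPM in a set, 1 was higher in the 12 libraries, 1 was lower and 2 overlapped. The share without overlap was thus above the 31.0% of all genes, but 4 genes are too few to read this as a difference. It rests on STC1 and STC2, which each reached such a median only in the set where they were high, so it is no independent evidence. STC1 was 5.15, 118 and 505 TPM at its lowest, median and highest in the 12 libraries without SMAD4, and 0, 0.120 and 4.72 TPM in the 14 others. STC2 was 0, 0.121 and 0.615 TPM in the 12 libraries and 56.9, 124 and 227 TPM in the 14. The protease gene PAPPA itself was at most 0.564 TPM, and HTRA1, a protease that cleaves binding proteins, had medians of 54.4 and 8.27 TPM with overlapping ranges.

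Among regulators of IGF2, 1 gene was higher in the 12 libraries, 2 were lower and 6 overlapped, a share of 33.3% without overlap that is near the 31.0% of all genes. IGF2BP1, which binds IGF2 mRNA, was 0.433 TPM at its median in the 12 libraries and 21.7 TPM in the 14, and IGF2BP3 was 35.3 and 64.1 TPM. PLAG1, a transcription factor known to activate IGF2, was higher where IGF2 was low, with medians of 6.31 and 1.22 TPM. Of 6 neighbours of IGF2 at 11p15.5 with such a median, 1 was higher in the 12 libraries, 1 was lower and 4 overlapped (TNNT3, LSP1, CDKN1C and SLC22A18), again 33.3% without overlap. TH (tyrosine hydroxylase) had medians of 5.63 and 0.0379 TPM, opposite in direction to IGF2, and MRPL23 had 72.5 and 183 TPM, in the direction of IGF2.

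**Figure D5:**
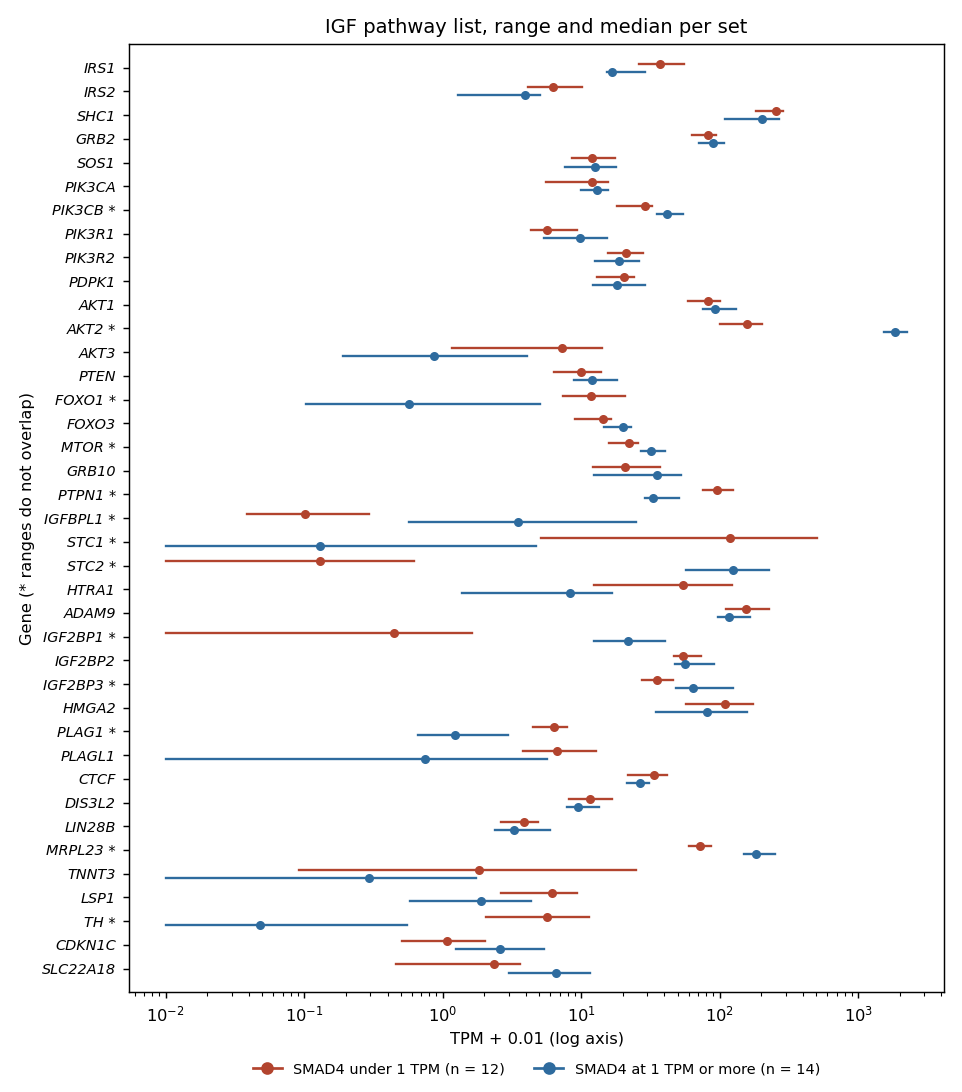
Range (line) and median (point) over libraries of the 39 listed pathway genes with a median of at least 1 TPM in a set (x axis, TPM + 0.01 on a log axis), for the 12 libraries with SMAD4 under 1 TPM and the 14 others. Stars mark the 13 genes whose ranges do not overlap, among them STC1 and STC2, which go in opposite directions.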

How the data were processed

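Poly-A RNA of 26 SCDCLs was sequenced as stranded paired-end libraries. Per the submitters' processing notes and the methods, the authors quantified transcripts with kallisto 0.46.1 on GRCh38 and summed them to genes with tximport. The deposited table holds TPM, estimated counts scaled by transcript length, mean effective lengths (bases) and repeat estimates of each library, which were not used here. Only TPM compares genes with each other. The annotation release was not taken over here. Gene positions are those of GENCODE 44, matched by gene ID. H19 and most long noncoding genes have no row among those analysed here.

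The 2 sets were split at 1 TPM of SMAD4, since SMAD4 goes against 14 labels. Members, lists and tests were chosen with earlier results of these data known, and the marker and pathway lists are named in the text where values are given. Labels were compared with edgeR 4.0.16 (quasi-likelihood, TMM, filterByExpr, Benjamini-Hochberg adjustment) on rounded estimated counts, with DESeq2 1.42.0 and limma 3.58.1 as alternatives. The scripts were tested on simulated data. Correlations used 100000 permutations. Pathway genes were named where ranges did not overlap and medians differed at least 4-fold with the higher at 5 TPM or more, and IRS1, AKT1, INSR, IGF1, INS, INS-IGF2, IGFBPL1, PAPPA, HTRA1, IGF2BP3, MRPL23, TNNT3, LSP1, CDKN1C and SLC22A18 were added after their values were seen, as were the marker genes named. For IGFBP5 and IGFBP2 the 3 genes with the highest r were named. The labels do not say that clones were cultured more than once. With 1 library per clone, p-values measure the spread between libraries, in which clone, culture and library preparation cannot be told apart. The closest pair of libraries (Panc1 8 and BxPC3 17, of unlike labels) differed by 14.6 times the sampling expectation, so none was counted as a repeat sequencing of another. That expectation covers counting error only and cannot tell 2 clones from 2 cultures of 1 clone. At depths of 27035724 to 34945608 estimated counts, 3 counts stood for at most 0.0199 to 0.185 TPM, depending on the gene and the set.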

Additional observations from a re-analysis of the deposited data

How the results depend on the processing

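The number of members whose ranges did not overlap between the SMAD4 sets was 3 with CPM and with another scaling of TPM. It was also 3 with every library left out in turn, but this only narrows ranges and could not lower the number. A split at 10 TPM gave the same sets, so its result was fixed. Leaving out a library gave a share of such genes of 15.2 to 16.1% higher in the 12 libraries and of 15.8 to 16.6% higher in the 14. This share too could hardly fall, for the same reason. Between labels, DESeq2 called 1 gene over all libraries and 11 in the 12 libraries where edgeR called 0, limma gave a log2 fold change of 0.037 for IGFBP6 in the 12 libraries, opposite in sign to edgeR, and leaving out any library gave 0 genes and 0 members with edgeR. The SD of IGFBP5 in the 12 libraries was 1.80 with CPM, 2.05 with a pseudocount of 0.1, 0.69 with a pseudocount of 5 and 1.12 as a scaled median absolute deviation, at percentiles of 98.1 to 99.8 over these settings, and 1.20 to 1.38 with a library left out. That of IGFBP2 in the 14 libraries was 2.41 with a pseudocount of 0.1, 1.67 with 5 and 2.93 as a scaled median absolute deviation, with at most 91 genes above it over these settings, and 2.03 to 2.25 with a library left out. A pseudocount shrinks or widens the scale by construction. Pearson's r of IGF1R and IGF2R in the 14 libraries was 0.47 with CPM (permutation p = 0.0913) and 0.53 with a pseudocount of 0.1 (permutation p = 0.0507), and the cause was not tested. It was 0.40 to 0.87 with a library left out, with a permutation p of 0.05 or more without any of Panc1 8 to 14, BxPC3 15, 19, 20 and 22. In the 12 libraries r was -0.18 to 0.11 for the receptors and 0.28 to 0.54 for IGFBP2 and IGFBP5. A pseudocount of 1 brought the log2 ratio of medians of IGF2 to -3.23 and of IGFBP5 to 1.11. With a library left out, the fold change between labels in the 12 libraries was -0.65 to 1.32 for IGFBP5 and -0.52 to 0.58 for IGFBP6. No paired analysis was possible because the labels share no replicate numbers. IGFBP3, IGFBP5 in the 14 libraries and IGFBP7 are limited by depth.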
